A study of Mus musculus with 16 samples.

Results

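The miR-106b, miR-93, miR-25 cluster was examined in whole lung of mice with allergic airways disease (AAD), the mouse counterpart of allergic asthma. Its members were all rows of the arrays whose name is mmu-miR-106b, mmu-miR-93 or mmu-miR-25 with or without an arm suffix, where 5p and 3p name the arms of the hairpin precursor. This rule gave 5 of the 611 mouse miRNAs on the arrays, namely miR-106b-5p, miR-106b-3p, miR-93-5p, miR-93-3p and miR-25-3p. The study compared lungs of BALB/c mice aged 8 to 12 weeks in 4 groups, and all groups received 1 mg Alhydrogel, an aluminium adjuvant, by intraperitoneal injection on day 0. PBS/PBS mice (2 arrays) were neither sensitised nor challenged with allergen, according to the labels, although the methods state that every mouse was challenged with ovalbumin (OVA, the egg white allergen). PBS/OVA mice (4 arrays) were not sensitised and inhaled 10 μg OVA on days 12, 13, 14 and 15. OVA/OVA mice (6 arrays) were sensitised with 50 μg OVA in the adjuvant and challenged in the same way, which models AAD. OVA/OVA DEX mice (4 arrays) were sensitised and challenged alike and were given dexamethasone, a synthetic glucocorticoid, at 3 mg/kg from day 11 on every second day, 1 hour before the challenge. Lungs were taken 24 hours after the last challenge.

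A miRNA guides a silencing complex to messenger RNAs that pair with its seed, the short stretch near its 5′ end, and thereby lowers their translation and stability. The 3 hairpins of the cluster lie in an intron of Mcm7, which encodes a subunit of the replicative DNA helicase, and are made from the same host transcript, whose promoter is driven by E2F factors in dividing cells. The cluster is known for repressing cell cycle and cell death regulators such as Cdkn1a and Bim and for dampening TGF-β signalling. It is a paralogue of the miR-17 cluster on chromosome 14, known for its part in lymphocyte growth, and of the miR-106a cluster on the X chromosome. The paralogues hold miRNAs with the same seeds, and these could therefore pair with much the same target sites.

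The mature sequences show which members share a seed with each other and with the relatives that the results turn on. They were taken from RefSeq on build GRCm38.p6 and are written 5′ to 3′, with the seed (bases 2 to 8) in capitals. miR-106b-5p and miR-93-5p carry the seed of miR-17-5p, and miR-25-3p carries that of miR-92a-3p.
miR-106b-5p: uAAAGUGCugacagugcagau
miR-93-5p: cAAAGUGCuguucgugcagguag
miR-20a-5p: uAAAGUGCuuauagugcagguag
miR-20b-5p: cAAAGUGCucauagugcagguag
miR-17-5p: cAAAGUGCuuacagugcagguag
miR-25-3p: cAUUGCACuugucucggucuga
miR-92a-3p: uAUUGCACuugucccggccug
miR-32-5p: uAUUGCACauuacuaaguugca

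Position by position from the 5′ end, miR-106b-5p matched miR-93-5p at 16 of 21 bases and miR-20a-5p at 18 of 21. miR-93-5p matched miR-20a-5p at 19 of 23 bases, and miR-25-3p matched miR-92a-3p at 18 of 21 but miR-32-5p at 13 of 22. The opposite arms, miR-106b-3p with seed CGCACUG and miR-93-3p with seed CUGCUGA, share neither seed. On GRCm38.p6 the hairpins of Mir106b (chr5:138165737-138165818), Mir93 (chr5:138165523-138165610) and Mir25 (chr5:138165321-138165404) lie in this order on the minus strand, all inside Mcm7 (chr5:138164583-138172111). They span 498 bases, with 126 bases between Mir106b and Mir93 and 118 between Mir93 and Mir25.

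Total lung RNA was hybridised to 1-colour arrays, and all values below are scaled signals: the background-subtracted signals of a miRNA's probes were added up and divided by the array's 75th percentile over the 206 miRNAs detected on every array, which was set to 100. The arrays detected 224 to 301 miRNAs each, and the 266 that at least 1 group detected on each of its arrays were tested with limma, whose adjusted p (Benjamini-Hochberg over the 266) had to lie under 0.05 to pass. Before scaling, the summed signal of the OVA/OVA arrays was 251350 to 733489, that of OVA/OVA DEX 499733 to 638811, that of PBS/OVA 493063 to 718149 and that of PBS/PBS 793227 and 940050, and 4 OVA/OVA arrays were dimmer than every array of the other groups. The arrays lay on 2 slides, and both PBS/PBS arrays were on slide 1. The labels give no animal identities, so p-values measure the spread between these arrays. Both miR-126 arms of the endothelium and 5 of 6 epithelial miRNAs were detected on all arrays, and the tissue itself is taken from the labels. Haematopoietic miRNAs (miR-142, miR-150, miR-155, miR-223 and miR-342) had a summed scaled signal of 1947 to 2872 in OVA/OVA. It was 1087 to 1602 in OVA/OVA DEX, 964 to 1431 in PBS/OVA and 1233 to 1384 in PBS/PBS. In whole tissue, a change in the share of a cell type and a change in RNA per cell cannot be told apart.

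One arm of each precursor was detected on every array, and the opposite arms that the arrays carry were detected on none. miR-106b-5p, miR-93-5p and miR-25-3p were each detected on 16 of 16 arrays, by 2 probes with 20 spots per array. miR-106b-3p and miR-93-3p were detected on 0 of 16 arrays by 4 probes each. Their unscaled signals ran from -12.2 to 1.76 and from -10.3 to 1.60, whereas the lowest unscaled signal of the detected arms was 228, for miR-93-5p. The 2 opposite arms were therefore not tested, and miR-25-5p was not analysed here. The detected arms are those known as the guide strands of these precursors.

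miR-106b-5p, the first miRNA of the transcript, had nearly the same level in the lungs of all groups. Its scaled signal was 71.6 and 70.5 in PBS/PBS. It was 73.3, 63.8, 75.2 and 72.0 in PBS/OVA. In OVA/OVA it had a lowest value of 60.5, a median of 74.2 and a highest value of 79.3. The ranges of these groups overlapped, and the lowest value of all arrays was that of OVA/OVA replicate 6, which was also the dimmest array. In OVA/OVA DEX it was 89.1, 74.8, 77.8 and 69.2, and replicate 1 of this group was the highest of all 16 arrays. The log2 difference of OVA/OVA was 0.01 from PBS/PBS (95% interval -0.23 to 0.25), 0.01 from PBS/OVA (-0.17 to 0.20) and -0.11 from OVA/OVA DEX (-0.30 to 0.08). None passed in limma (adjusted p = 0.952, 0.901 and 0.314).

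miR-25-3p, the last miRNA of the transcript and the one with the other seed, also kept within a narrow range. Its scaled signal was 45.2 and 42.6 in PBS/PBS. It was 44.1, 38.4, 45.9 and 41.6 in PBS/OVA. In OVA/OVA it had a lowest value of 43.6, a median of 46.3 and a highest value of 49.6. All 6 of these arrays thus lay above the lower PBS/PBS array, and 3 of them above every PBS/OVA array. In OVA/OVA DEX it was 55.2, 46.4, 47.0 and 41.7, and this group held the OVA/OVA range within its own. The log2 difference of OVA/OVA was 0.08 from PBS/PBS (95% interval -0.13 to 0.30), 0.13 from PBS/OVA (-0.04 to 0.30) and -0.03 from OVA/OVA DEX (-0.20 to 0.14). None passed in limma (adjusted p = 0.538, 0.212 and 0.806).

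miR-93-5p, the middle miRNA, had higher values in part of the sensitised lungs, and under this scaling it differed more from PBS/PBS and PBS/OVA than the other 2 did. Its scaled signal was 25.7 on both PBS/PBS arrays. It was 27.5, 24.8, 29.1 and 26.0 in PBS/OVA. In OVA/OVA it was 34.1, 37.1, 32.8, 27.7, 27.4 and 28.0 on replicates 1 to 6. Replicates 1, 2 and 3 thus lay above every PBS/OVA array, and the other 3 lay within the PBS/OVA range. In OVA/OVA DEX it was 35.4, 28.0, 27.1 and 28.8, where replicate 1 again stood highest. The log2 difference of OVA/OVA was 0.27 from PBS/PBS (95% interval -0.01 to 0.55, a fold of 0.994 to 1.46) and 0.21 from PBS/OVA (-0.01 to 0.43). Neither passed in limma (adjusted p = 0.132 and 0.128). The arrays of OVA/OVA and PBS/PBS did not overlap, which held for 51.5% of all tested miRNAs in that comparison. From OVA/OVA DEX the log2 difference was 0.06 (-0.16 to 0.28, adjusted p = 0.642 in limma).

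The slide bears on miR-93-5p. With the slide as a block, its log2 difference of OVA/OVA was 0.39 from PBS/PBS (adjusted p = 0.0298) and 0.24 from PBS/OVA (adjusted p = 0.0469), and both passed in limma. In that fit, 72 and 94 of all 266 tested miRNAs passed in these comparisons. Within slide 1, with 2 arrays a group, the differences were 0.47 and 0.41 and did not pass. Within slide 2 the difference from PBS/OVA was 0.11 and did not pass, and slide 2 held no PBS/PBS array. Neither miR-106b-5p nor miR-25-3p passed with the slide as a block.

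**Figure D1:**
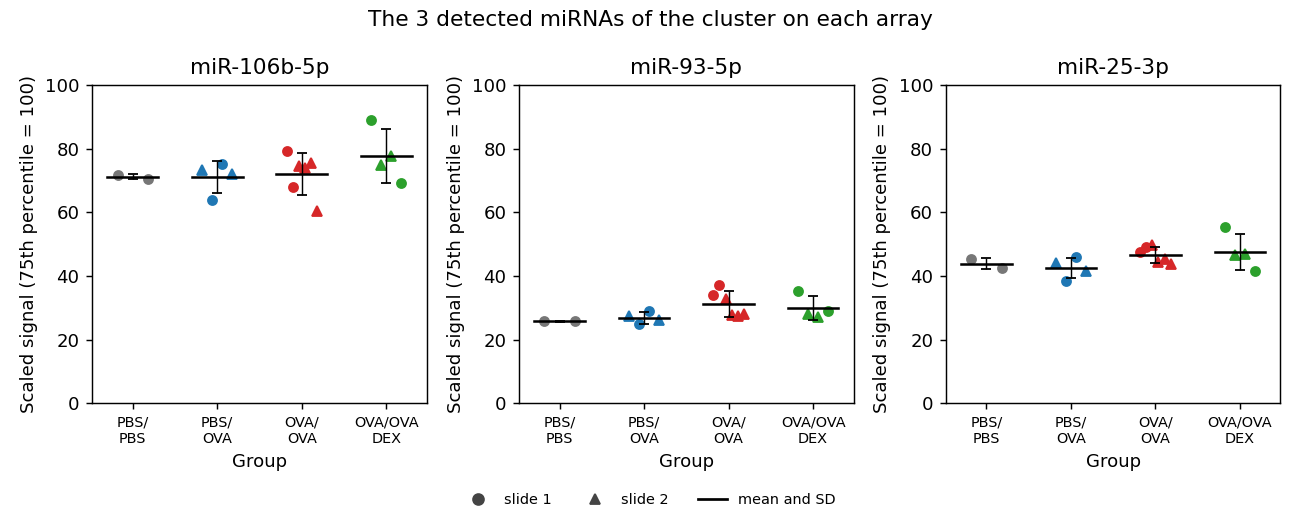
Scaled signal (75th percentile of the array = 100) of miR-106b-5p, miR-93-5p and miR-25-3p on each array by group, with circles for slide 1 and triangles for slide 2; horizontal lines are group means and bars the SD (n = 2, 4, 6 and 4). The groups overlap throughout, except that the OVA/OVA and OVA/OVA DEX arrays of miR-93-5p lie above both PBS/PBS arrays at 25.7.

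Across the 5 comparisons, 0 of the 3 members passed in any, so no difference in this cluster between the groups was detectable with this fit. All 15 member tests had an unadjusted p of at least 0.0564 and an adjusted p of at least 0.128 in limma. Of all 266 miRNAs, 25.6% passed between OVA/OVA and PBS/PBS, 31.6% between OVA/OVA and PBS/OVA, and 53.4% between OVA/OVA and OVA/OVA DEX. PBS/OVA and PBS/PBS differed in 0.376% of them, and OVA/OVA DEX and PBS/PBS in 0.0%. In the latter comparison 19 miRNAs (7.14%) had an unadjusted p under 0.05 in limma. The exact Mann-Whitney test could not pass there, since 4 against 2 arrays do not go below p = 0.133. The 95% intervals of all 15 differences lay between -0.30 and 0.55 on the log2 scale, or between 0.813-fold and 1.46-fold. Under this scaling, a change of 2-fold in either direction was thus outside every interval. A miss of the threshold does not show that the levels were equal. OVA challenge alone (PBS/OVA against PBS/PBS) gave log2 differences of -0.00 for miR-106b-5p, -0.05 for miR-25-3p and 0.06 for miR-93-5p. OVA/OVA DEX against PBS/PBS gave 0.12, 0.11 and 0.21, with adjusted p of 0.812, 0.812 and 0.651 in limma. miR-93-5p did not overlap between these 2 groups, as held for 27.1% of all tested miRNAs.

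The scaling sets the level against which these differences are read. When the arrays were scaled by their control spots instead, the median difference of all tested miRNAs moved from near 0 to -0.76, -0.71 and -0.86 in the comparisons of OVA/OVA with PBS/PBS, with PBS/OVA and with the dexamethasone group. The members then had log2 differences of -0.72, -0.66 and -0.88 for miR-106b-5p, -0.65, -0.54 and -0.80 for miR-25-3p and -0.47, -0.46 and -0.71 for miR-93-5p, and all of these passed in limma. Relative to that median they were 0.03, 0.05 and -0.02 for miR-106b-5p, 0.10, 0.17 and 0.06 for miR-25-3p, and 0.29, 0.25 and 0.15 for miR-93-5p. A factor per array shifts all miRNAs of that array alike and cancels in such a distance. These distances therefore nearly repeat those under the scaling used above and are no second test of the members. Which scaling reflects the miRNA content of a lung was not tested.

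The log2 differences of a member's 2 probes lay furthest apart in the comparisons with OVA/OVA DEX, by 0.10 to 0.16. Between OVA/OVA and OVA/OVA DEX this gap exceeded the difference of each member. In the comparisons of OVA/OVA with PBS/PBS and PBS/OVA the gap was 0.00 to 0.06. Between the probes of a miRNA, the log2 difference in a comparison varied by 0.00 to 0.12 for miR-106b-5p, by 0.01 to 0.16 for miR-25-3p and by 0.04 to 0.15 for miR-93-5p. For miR-93-5p, the probes gave 0.24 and 0.28 between OVA/OVA and PBS/PBS, and 0.26 and 0.20 between OVA/OVA and PBS/OVA. The probes had opposite signs between OVA/OVA and OVA/OVA DEX, at -0.06 and 0.09 for miR-93-5p and at -0.11 and 0.02 for miR-25-3p, and the probes of miR-93-5p also did so between PBS/OVA and PBS/PBS, at -0.03 and 0.08.

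The members were among the steadier miRNAs of the lung. Over all 16 arrays, the SD of the log2 scaled signal was 0.12 for miR-25-3p, 0.13 for miR-106b-5p and 0.18 for miR-93-5p, against a median of 0.29 over the 266 tested miRNAs. From the smallest upwards, these were the ranks 17, 20 and 66 of 266, and the same ranks of the 206 miRNAs detected on all arrays. Within groups the residual SD was 0.11, 0.13 and 0.16 (ranks 41, 58 and 93 of 266), with a median of 0.20 over the tested miRNAs. It was 0.14 for miR-20a-5p and miR-20b-5p and 0.15 for miR-92a-3p and miR-32-5p, so the seed relatives were about as steady within groups. Dim miRNAs spread more than bright ones on these arrays, as the plot of spread against level shows.

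**Figure D2:**
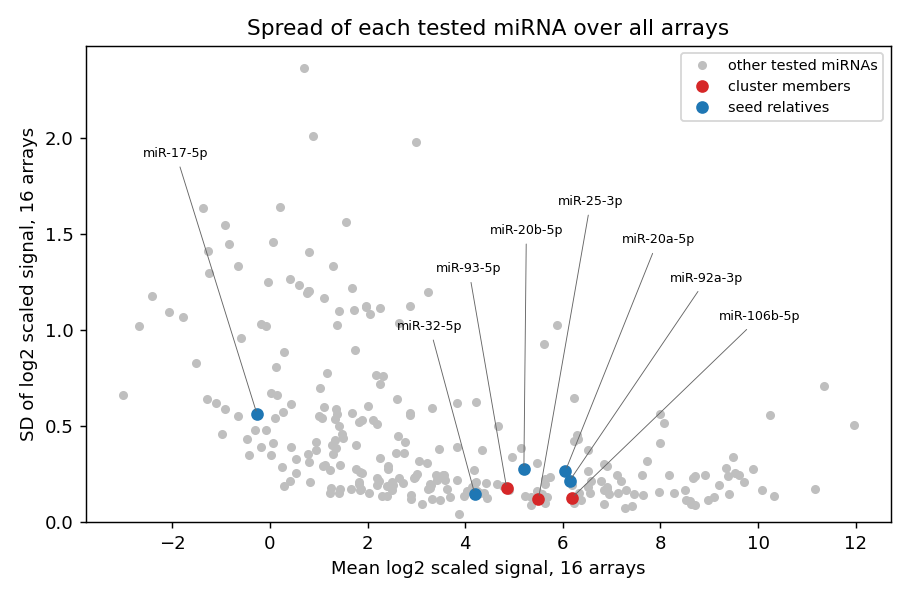
SD of the log2 scaled signal over the 16 arrays (vertical) against its mean (horizontal) for each of the 266 tested miRNAs, with the cluster members in red and their seed relatives in blue. The members lie low in the cloud, at SDs of 0.12, 0.13 and 0.18, while miR-20a-5p and miR-20b-5p lie at 0.27 and 0.28 and the dim miR-17-5p at 0.56.

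As a description of likeness, profiles over the 16 arrays were centred and compared by their root mean square distance on the log2 scale, which shares the arrays and their scaling among all miRNAs. Nearest to miR-106b-5p outside the cluster were miR-148b-3p (0.07), miR-16-5p (0.07) and miR-185-5p (0.09), against a median distance of 0.28 over 263 miRNAs. Nearest to miR-25-3p were miR-16-5p (0.06), miR-652-3p (0.07) and miR-15a-5p (0.09), with a median of 0.29. Nearest to miR-93-5p were miR-141-3p (0.12), miR-652-3p (0.12) and miR-19b-3p (0.14), with a median of 0.33. Within the cluster, miR-106b-5p and miR-25-3p lay 0.09 apart, miR-93-5p and miR-25-3p 0.10, and miR-106b-5p and miR-93-5p 0.16. miR-25-3p was nearer to miR-93-5p than any of the 263 miRNAs outside the cluster, whereas 46 of them were nearer to miR-106b-5p than miR-93-5p was.

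The ratio of 2 members on the same array does not depend on a scaling factor of the array, and it asks whether the miRNAs of 1 transcript kept their proportions. The log2 ratio of miR-106b-5p over miR-93-5p was 0.88 to 1.46 in OVA/OVA. It was 1.26 to 1.52 in OVA/OVA DEX, 1.37 to 1.47 in PBS/OVA, and 1.48 and 1.46 in PBS/PBS. The OVA/OVA arrays spread the widest, with 4 of 6 below every PBS/OVA array. The mean of OVA/OVA was lower by 0.19 than that of PBS/OVA (exact two-sided permutation test p = 0.105) and lower by 0.17 than that of OVA/OVA DEX (exact p = 0.162). After adjustment over the 16 ratio tests made in all, the p-values were 0.239 and 0.324. The ratios of miR-106b-5p and of miR-93-5p over miR-25-3p had exact permutation p of 0.190 to 0.333, so none of the 6 tests between members passed.

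Among the seed relatives in the paralogous clusters, miR-20a-5p, miR-20b-5p and miR-92a-3p were higher in the OVA/OVA lungs in at least 1 comparison. Of the 9 relatives fixed as a list, miR-106a-5p was not analysed here, miR-92b-3p, miR-363-3p and miR-367-3p were detected on 1, 2 and 0 of 16 arrays and not tested, and 5 were tested. miR-20a-5p of the miR-17 cluster had a scaled signal of 58.2 and 54.8 in PBS/PBS and of 58.4, 53.8, 60.0 and 55.6 in PBS/OVA. In OVA/OVA it had a lowest value of 67.4, a median of 83.2 and a highest value of 94.9. In OVA/OVA DEX it was 66.4, 61.3, 63.2 and 58.6. All 6 OVA/OVA arrays thus lay above every array of the other groups, and miR-20a-5p rose in OVA/OVA by a log2 difference of 0.51 (SE 0.120) over PBS/PBS, of 0.50 (SE 0.0950) over PBS/OVA and of 0.37 (SE 0.0950) over the dexamethasone group, with adjusted p of 0.00858, 0.00141 and 0.00661 in limma. Of all tested miRNAs, 13.2%, 14.7% and 21.1% rose in these comparisons, and 51.5%, 19.9% and 31.2% did not overlap between the groups.

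miR-20b-5p of the miR-106a cluster, which matches miR-20a-5p at 21 of 23 bases, rose by 0.51, 0.54 and 0.40 (adjusted p = 0.00849, 0.000802 and 0.00400 in limma). miR-92a-3p, which both paralogous clusters encode, was 68.9 and 62.9 in PBS/PBS, 62.0, 51.6, 66.3 and 63.8 in PBS/OVA, 75.4, 69.6, 74.8 and 57.6 in OVA/OVA DEX, and 69.5 to 87.9 in OVA/OVA with a median of 80.7. It rose over PBS/OVA by 0.41 (adjusted p = 0.00667) and had differences of 0.29 from PBS/PBS and 0.22 from the dexamethasone group (adjusted p = 0.0908 and 0.0652 in limma). miR-32-5p, encoded alone elsewhere, had differences of 0.08, 0.00 and -0.10 (adjusted p = 0.645, 0.981 and 0.417 in limma). miR-17-5p was near the detection limit, at scaled signals of 0.37 to 1.60 and detected on 13 of 16 arrays, and did not pass in any comparison. Of the miRNAs of the paralogous clusters with other seeds, miR-18a-5p and miR-19a-3p rose in all 3 comparisons and miR-19b-3p passed in none of them.

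These rises are read against the 75th percentile and turn with the scaling: with control spots the differences of miR-20a-5p were -0.22, -0.17 and -0.40, of miR-20b-5p -0.22, -0.14 and -0.37, and of miR-92a-3p -0.44, -0.26 and -0.55. Relative to the median of all tested miRNAs under that scaling, they were 0.53, 0.54 and 0.46 for miR-20a-5p, 0.53, 0.58 and 0.49 for miR-20b-5p, and 0.31, 0.45 and 0.31 for miR-92a-3p. As a factor per array cancels in such a distance, these nearly repeat those under the 75th percentile and are no second test. Without 1 of the 2 PBS/PBS arrays, the calls of miR-20a-5p and miR-20b-5p against PBS/PBS were lost (adjusted p of up to 0.104 in limma). With quantile normalisation both were also lost against the dexamethasone group, at 0.22 and 0.29 (adjusted p = 0.112 and 0.0726 in limma). With the percentile taken over all miRNAs both were lost against PBS/OVA, at 0.26 and 0.30 (adjusted p = 0.248 and 0.211), and against the dexamethasone group, at 0.15 and 0.18 (adjusted p = 0.493 and 0.428 in limma). Within slide 2 both were at 0.41 from PBS/OVA and did not pass (adjusted p = 0.106 in limma). Within slide 1, with 2 arrays a group, they were at 0.69 and 0.75 and passed (adjusted p = 0.0277 and 0.0161 in limma).

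**Figure D3:**
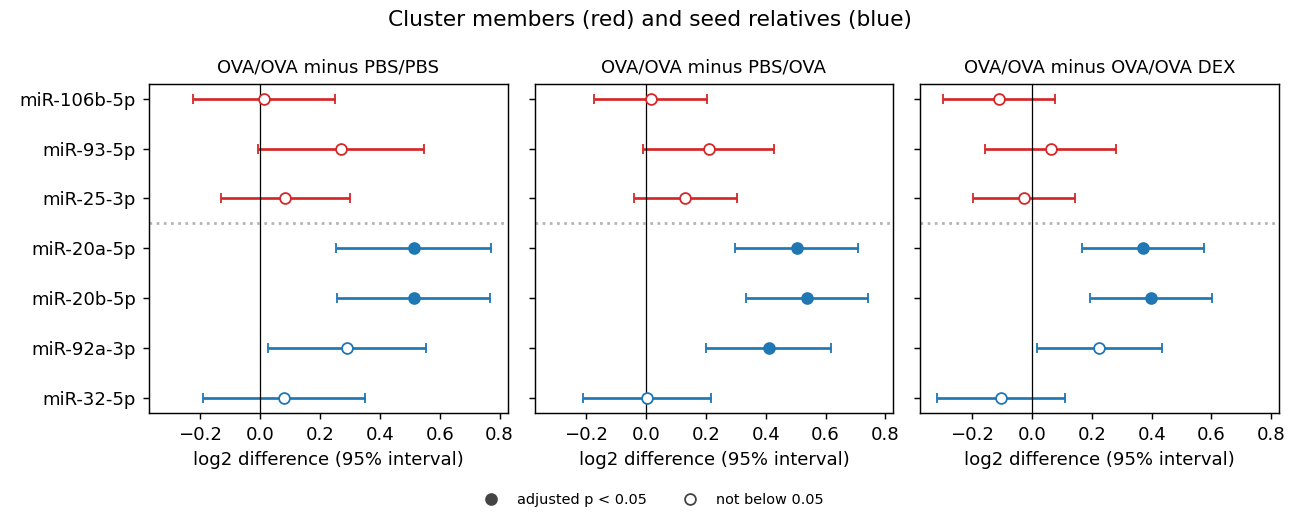
Log2 difference of OVA/OVA from each of the other groups (horizontal, with 95% interval) for the 3 cluster members in red and 4 seed relatives in blue; filled points have an adjusted p under 0.05 in limma. Each member's interval includes 0, while miR-20a-5p and miR-20b-5p lie at 0.37 to 0.54 in all 3 panels.

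The difference between members and relatives was tested within arrays, where a scaling factor of the array cancels, with miR-17-5p, miR-20a-5p and miR-92a-3p as the relatives. No ratio over miR-20b-5p was tested. The log2 ratio of miR-106b-5p over miR-20a-5p was 0.24 to 0.42 in OVA/OVA DEX, 0.24 to 0.37 in PBS/OVA, and 0.30 and 0.36 in PBS/PBS. In OVA/OVA it was -0.17, -0.48, -0.26, 0.13, 0.11 and -0.36 on replicates 1 to 6, below every other array. Its mean was lower by 0.49 than in PBS/OVA and by 0.48 than in OVA/OVA DEX. Both had an exact two-sided permutation p of 0.00952, the smallest that 6 against 4 arrays allow, and 0.0305 after adjustment over the 16 ratio tests.

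The log2 ratio of miR-93-5p over miR-20a-5p was -1.46 to -1.28 in OVA/OVA. It was -1.22 to -0.91 in OVA/OVA DEX, -1.12 to -1.04 in PBS/OVA, and -1.18 and -1.09 in PBS/PBS. The 6 OVA/OVA arrays again lay below all others, with a mean lower by 0.29 than PBS/OVA and by 0.31 than OVA/OVA DEX (exact permutation p = 0.00952 each, adjusted p = 0.0305). miR-93-5p, which was itself higher on 3 OVA/OVA arrays, thus stood lower against its seed relative on all 6. The log2 ratio of miR-25-3p over miR-92a-3p was -0.87 to -0.65 in OVA/OVA. It was -0.67 to -0.45 in OVA/OVA DEX, -0.61 to -0.43 in PBS/OVA, and -0.61 and -0.56 in PBS/PBS. Its mean in OVA/OVA was lower by 0.28 than in PBS/OVA (exact permutation p = 0.00952, adjusted p = 0.0305). Against OVA/OVA DEX it was lower by 0.25, with 5 of 6 arrays below every OVA/OVA DEX array (exact permutation p = 0.0190, adjusted p = 0.0508), which missed the threshold.

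In all, 5 of the 16 ratio tests passed. With quantile normalisation 0 did, where the same 5 differences were -0.46, -0.42, -0.29, -0.22 and -0.24, with adjusted exact permutation p of 0.152 to 0.259. With 1 array of these 3 groups left out, 0 passed, except without OVA/OVA replicate 4, when 6 did. The smallest exact permutation p was then 0.0159 for 5 against 4 arrays and 0.0238 for 6 against 3. The 5 comparisons were fully separated on all arrays, so with an array left out they had to stay separated and keep their direction. The misses reflect the limit on the exact permutation p together with the adjustment over the 16 tests. PBS/PBS was not tested, since 6 against 2 arrays cannot go below an exact permutation p of 0.0714, but the 6 OVA/OVA arrays lay below both PBS/PBS arrays for these 3 ratios, with mean differences of -0.50, -0.24 and -0.21. The ratios use the same arrays on which the relatives rose and so are no independent evidence of that rise. How often ratios of other miRNA pairs pass or separate the groups was not tested. Among single tested miRNAs, 19.9% did not overlap between OVA/OVA and PBS/OVA, and 31.2% between OVA/OVA and the dexamethasone group. In limma, 31.6% and 53.4% of them passed. Separated groups were thus common among single miRNAs, and separation alone does not set these ratios apart. The 4 tests of miR-106b-5p and miR-93-5p over the dim miR-17-5p had exact permutation p of 0.552 to 0.905.

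The differences within each slide are given as values. Where the groups were fully separated, that separation fixed the sign within each slide, so these values are no second test. Within slide 1 the differences of OVA/OVA from PBS/OVA were -0.61, -0.29 and -0.33 for miR-106b-5p over miR-20a-5p, miR-93-5p over miR-20a-5p and miR-25-3p over miR-92a-3p, and within slide 2 they were -0.44, -0.30 and -0.24. From OVA/OVA DEX they were -0.65, -0.40 and -0.35 on slide 1 and -0.39, -0.21 and -0.16 on slide 2. Array brightness moved with the group, and its part in the ratios was not tested. OVA/OVA replicates 1 and 4, with summed signals of 707731 and 733489, were brighter than every OVA/OVA DEX array. Both were dimmer than the PBS/PBS arrays (793227 and 940050), and replicate 1 also than PBS/OVA replicate 3 (718149). Their ratios of miR-93-5p over miR-20a-5p were -1.38 and -1.28, and those of miR-106b-5p over miR-20a-5p were -0.17 and 0.13. These lay below the other groups, as did those of all 6 OVA/OVA arrays. For miR-25-3p over miR-92a-3p they were -0.79 and -0.65, and replicate 4, the brightest OVA/OVA array, lay above OVA/OVA DEX replicate 3 at -0.67. Replicate 4 was the OVA/OVA array nearest to the other groups in all 3 ratios. Cross-hybridisation between relatives that differ by so few bases was not tested.

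**Figure D4:**
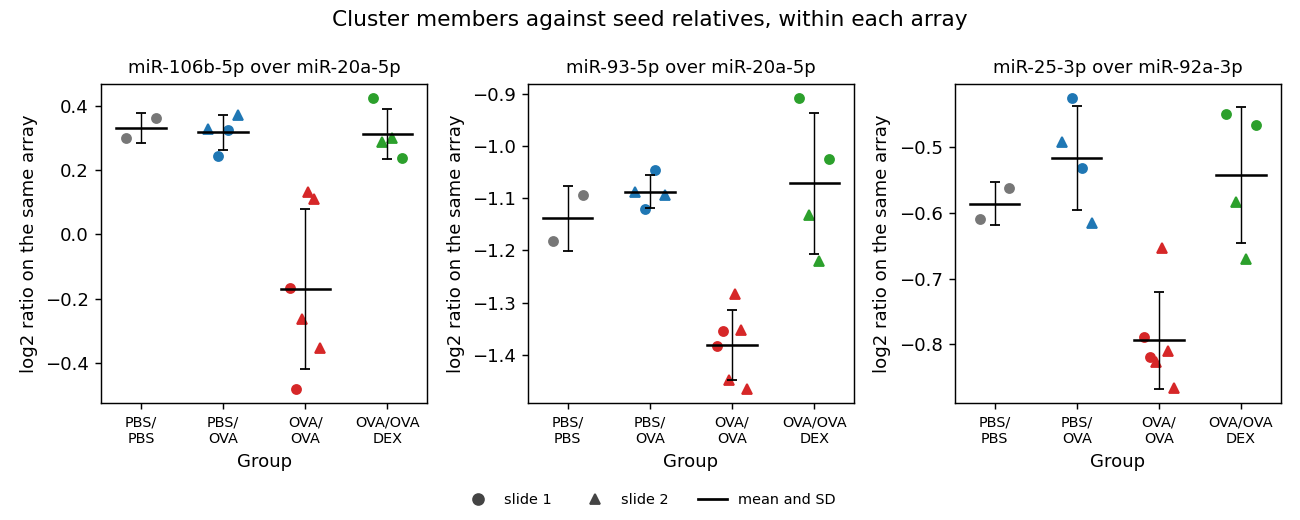
Log2 ratio on the same array of miR-106b-5p over miR-20a-5p, miR-93-5p over miR-20a-5p and miR-25-3p over miR-92a-3p by group, with circles for slide 1, triangles for slide 2, lines for group means and bars for the SD (n = 2, 4, 6 and 4). The 6 OVA/OVA arrays lie below all other arrays in the first and second panel, and in the third below all but 1 OVA/OVA DEX array at -0.67.

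Markers of several cell types also differed between OVA/OVA and the other groups. Against PBS/PBS, 4 of the 6 haematopoietic miRNAs listed were higher in OVA/OVA, against PBS/OVA 6, and 5 against the dexamethasone group (adjusted p under 0.05 in limma, beside the shares of 13.2%, 14.7% and 21.1% above), with median log2 differences of 0.69, 0.85 and 0.73, and all 6 were detected on every array. The summed signals of epithelial markers were 535 to 573 in OVA/OVA and 503 to 613 in the other groups, and of the 5 tested 1 was higher in each of the 3 comparisons and 1 lower against the dexamethasone group. Both endothelial miRNAs were lower in OVA/OVA than in PBS/OVA and than with dexamethasone (median log2 differences of -0.39 and -0.59), with summed signals of 1798 to 2403 in OVA/OVA and 2246 to 2851 in the other groups. Of all tested miRNAs, 32.3% were lower against the dexamethasone group, 16.9% against PBS/OVA and 12.4% against PBS/PBS. Of the 3 striated muscle miRNAs tested, 2 were lower in OVA/OVA in each of the 3 comparisons (medians -1.11, -0.84 and -0.88), with a summed signal of 37.1 to 125.9 against 99.3 to 169.4 in the other groups. Both smooth muscle miRNAs were lower against the dexamethasone group alone (median -0.38). Of the 4 ciliated cell miRNAs tested, 2 were lower against PBS/PBS, although the median log2 difference of the 4 was 0.31. Against the dexamethasone group, 2 were higher and 2 lower (median 0.88). The red cell markers miR-451a and miR-144-3p had a summed signal of 2176 to 4144 in OVA/OVA. With dexamethasone it was 5888 to 8007, and both were lower in OVA/OVA than there. It was 2816 to 5132 in PBS/OVA and 4279 to 4672 in PBS/PBS. The part of these cell types in the ratios was not tested.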

How the data were processed

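Total RNA of whole lung was labelled and hybridised to Agilent 1-colour mouse miRNA arrays, and spots were read with Feature Extraction 10.7.3.1. The deposited intensity values are spot signals with the local background subtracted by that software, not normalised between arrays. The authors also deposited processed log2 values whose scaling and centring are not given in the sources used here. These were used only as an alternative, for the 143 miRNAs that matched the scanner values within 0.15 on the log2 scale.

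Control and outlier spots were left out, replicate spots averaged, the probes of a miRNA added up, and the sums divided by the 75th percentile of each array over the 206 miRNAs detected on all arrays. Values below a floor of 0.1004 were set to it before taking log2. With limma 3.58.1 (R 4.3.3), a model with a mean for each group was fitted to the 16 arrays together, and p-values were adjusted over 266 miRNAs after Benjamini and Hochberg. Ratios within arrays were compared by exact two-sided permutation tests in Python 3.11.15. The alternatives covered the scaling, the background (normexp with an offset of 50 on the median spot signal, since the files hold no mean), the summary, the filter, the floor, the slide, the pairing, the test and each array left out. The number of arrays limits the precision.

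The text names all members, their seed relatives, and for each member the 3 tested miRNAs with the smallest profile distance. The members and lists were chosen with earlier results of these data known.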

Additional observations from a re-analysis of the deposited data

Results flagged for a closer look

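The log2 ratio of miR-25-3p over miR-92a-3p on OVA/OVA replicate 4 was -0.653, whereas the other 5 OVA/OVA arrays lay between -0.866 and -0.789. Its gap to the nearest array was 0.637 of the range of the group, above Dixon's 95% critical value of 0.625 for 6 arrays. It was 1 of 33 groups of values examined in this way, and chance alone marks about 1 in 20. The same array kept the comparison of this ratio with OVA/OVA DEX from a complete separation of the groups.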

How the results depend on the processing

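The members' levels are relative to the scaling. Of all miRNAs tested, 68, 84 and 142 passed between OVA/OVA and PBS/PBS, PBS/OVA and the dexamethasone group, against 178, 174 and 195 with control spots, 159, 2 and 23 with no scaling, 137, 21 and 107 with the percentile over all miRNAs, 166, 38 and 59 with normexp, 56, 62 and 90 with quantile normalisation and 12, 53 and 131 with array brightness as a covariate. With a slide block, 72, 94 and 150 passed. The cause was not tested. In these 3 comparisons the number of members that passed, 0 of 3 as reported, became 3, 3 and 3 with control spots. In the first it was 2 with no scaling, 1 with normexp and 1 with a slide block, and in the second 1 with a slide block. It was 0 with any array left out.

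Differences that changed sign are given in the order miR-106b-5p, miR-25-3p, miR-93-5p, miR-20a-5p, miR-20b-5p, miR-92a-3p where all did. With control spots (median of all tested -0.76, -0.71 and -0.86 in the 3 comparisons) they were -0.72, -0.65, -0.47, -0.22, -0.22 and -0.44 from PBS/PBS, and -0.66, -0.54, -0.46, -0.17, -0.14 and -0.26 from PBS/OVA. From the dexamethasone group they were -0.71 for miR-93-5p, -0.40 for miR-20a-5p, -0.37 for miR-20b-5p and -0.55 for miR-92a-3p, and miR-93-5p was -0.0021 between PBS/OVA and PBS/PBS. With no scaling (medians -1.11, -0.56 and -0.38) they were -1.08, -1.01, -0.83, -0.58, -0.58 and -0.81 from PBS/PBS. From PBS/OVA they were -0.50 for miR-106b-5p, -0.38 for miR-25-3p, -0.31 for miR-93-5p, -0.012 for miR-20a-5p and -0.11 for miR-92a-3p, and from the dexamethasone group -0.23 for miR-93-5p and -0.066 for miR-92a-3p. Between OVA/OVA DEX and PBS/PBS the 3 members were then at -0.68, -0.70 and -0.60 (median -0.72), and between PBS/OVA and PBS/PBS miR-93-5p was at -0.52 (median -0.56). With the percentile over all miRNAs (medians -0.56, -0.28 and -0.31) they were -0.52, -0.45, -0.26, -0.021, -0.022 and -0.24 from PBS/PBS, and -0.23, -0.11 and -0.031 for the 3 members from PBS/OVA. miR-93-5p was -0.16 from the dexamethasone group, and -0.23 between PBS/OVA and PBS/PBS (median -0.28). Between OVA/OVA DEX and PBS/PBS the 3 members were at -0.19, -0.20 and -0.11 (median -0.23).

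The other changes of sign were small. miR-106b-5p was -0.052 from PBS/PBS with quantile normalisation and -0.033 with the deposited values, -0.081 from PBS/OVA with quantile normalisation and -0.037 within slide 2. Between PBS/OVA and PBS/PBS it was 0.029 with quantile normalisation, 0.0047 with normexp, 0.082 with array brightness as a covariate and 0.0034 with a slide block. From the dexamethasone group, miR-25-3p was 0.0019 with quantile normalisation, 0.0154 with normexp and 0.0089 within slide 1, and miR-93-5p was -0.0006 with quantile normalisation. With normexp the median of all tested miRNAs rose to 0.55, 0.31 and 0.16 in the 3 comparisons.

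Of the ratios, 5 of 16 passed as reported, 0 with quantile normalisation, and 0 to 6 with an array left out, namely 6 without OVA/OVA replicate 4 and 0 without any other array of the 3 groups. The smallest exact permutation p was then 0.0159 for 5 against 4 arrays and 0.0238 for 6 against 3. The ratio of miR-106b-5p over miR-20a-5p ran from -0.55 to -0.43 against PBS/OVA with an array left out, and that of miR-25-3p over miR-92a-3p from -0.31 to -0.25. No ratio over miR-20a-5p or miR-92a-3p changed sign. The ratio of miR-93-5p over miR-25-3p was -0.057 from PBS/OVA and -0.0024 from the dexamethasone group with quantile normalisation. From PBS/OVA, miR-93-5p over miR-17-5p was 0.17 with quantile normalisation and 0.24 with the total gene signal, and miR-106b-5p over miR-17-5p was 0.0425 with the latter. From the dexamethasone group these were -0.16 with normexp and 0.049 with quantile normalisation.

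With each array left out, miR-106b-5p ran from -0.017 to 0.061 against PBS/PBS, from -0.036 to 0.064 against PBS/OVA and from -0.031 to 0.048 between PBS/OVA and PBS/PBS. miR-25-3p ran from -0.088 to 0.047 against the dexamethasone group and from -0.091 to 0.00 between PBS/OVA and PBS/PBS. The ratio of miR-106b-5p over miR-17-5p ran from -0.31 to 0.12 and that of miR-93-5p from -0.15 to 0.24 against the dexamethasone group, and the latter from -0.27 to 0.094 against PBS/OVA. The rise of miR-92a-3p passed against PBS/PBS without OVA/OVA replicate 4, and against the dexamethasone group without that array or without PBS/OVA replicate 2. Against PBS/PBS, the rises of miR-20a-5p and miR-20b-5p did not pass with quantile normalisation, with array brightness as a covariate or with the compared groups alone in the fit (adjusted p = 0.0554 in limma), and the exact Mann-Whitney test could not pass there with 6 against 2 arrays. Against the dexamethasone group they did not pass with quantile normalisation, and against that group and PBS/OVA not with the percentile over all miRNAs, with no scaling or within slide 2. The rise of miR-92a-3p over PBS/OVA did not pass with that percentile or within either slide.

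The replicate numbers did not pair the arrays: of 18 same-numbered pairs, 4 had correlated deviations above 0.1 (from -0.594 to 0.377, median -0.01 against 0.04 for other pairs). With the replicate number as a block, 0 members passed, miR-93-5p differed by 0.41 from PBS/PBS and 0.29 from PBS/OVA (adjusted p = 0.0599 and 0.0652 in limma), miR-106b-5p by 0.0026 between PBS/OVA and PBS/PBS, and miR-25-3p by 0.0062 from the dexamethasone group. Of all miRNAs, 52, 77 and 139 then passed in the 3 comparisons.

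The 2 opposite arms were not detected on any array.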
